A study of Mus musculus with 15 samples.

Results

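The genes of glucose uptake and upper glycolysis were described in sorted mouse skin tumour cells. The set held 10 genes of the 37583 in the count tables, chosen by name and matched by Ensembl gene identifier, and all 10 passed the filter on low counts. They were the transporters Slc2a1 (ENSMUSG00000028645) and Slc2a3 (ENSMUSG00000003153), the hexokinases Hk1 (ENSMUSG00000037012) and Hk2 (ENSMUSG00000000628), the isomerase Gpi1 (ENSMUSG00000036427), the phosphofructokinases Pfkl (ENSMUSG00000020277), Pfkm (ENSMUSG00000033065) and Pfkp (ENSMUSG00000021196), and the regulators Pfkfb3 (ENSMUSG00000026773) and Pfkfb4 (ENSMUSG00000025648). The tumours were raised in C57BL/6 mice with the carcinogen DMBA and the promoter TPA, given for over 24 weeks to mice of both genotypes. SIRT6 KO mice carried K14-cre with SIRT6 flox/flox, so that the recombinase follows the keratin 14 promoter of basal keratinocytes, and WT mice were the control. Tumour cells were sorted by surface alpha-6 integrin (a6) and CD34 into a CD34-positive a6-high population and a pair of CD34-negative ones, a6-high and a6-low. Each population had 2 KO and 3 WT libraries, 15 in all, and neither sex nor age was given in the labels.

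Glucose enters cells through facilitative transporters, of which GLUT1 (Slc2a1) is the main one in epidermal keratinocytes and GLUT3 (Slc2a3) is known as the neuronal one. Hexokinases trap glucose as glucose 6-phosphate, glucose phosphate isomerase turns it into fructose 6-phosphate, and phosphofructokinase makes the committed step to fructose 1,6-bisphosphate. The PFKFB enzymes make and remove fructose 2,6-bisphosphate, the strongest activator of phosphofructokinase. SIRT6 is a chromatin deacetylase that is known to repress glycolytic genes, many of which are targets of the hypoxia factor HIF1.

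Of the 10 genes, 9 had at least 1 start region in the RefSeq promoter table (GRCm38.p6). The core letters bound by HIF1, ACGTG or GCGTG on either strand, were searched in the 250 bases before each start, and 11 of the 14 windows, from 8 genes, held them. Among all 32851 promoter windows of the same length the share was 38.6%. The 14 windows are not separate, since Hk1, Pfkfb3 and Pfkm have more than 1 each. The Pfkm windows chr15:98108221-98108470 and chr15:98108306-98108555 overlap and hold the same CACGC, so the count over windows is no test of these genes. The palindrome CACGTG, which holds ACGTG on each strand, stood in 2 of the 14 windows and in 6.02% of all windows. The windows of 3 genes are shown because the results below turn on them, each 5′ to 3′ on the strand of its gene with matches in capitals (CACGT and CACGC being the reverse complements). The Gpi1 window is chr7:34230337-34230586 on the minus strand, the Hk2 window chr6:82774455-82774704 on the minus strand and the Slc2a1 window chr4:119108495-119108744 on the plus strand.
Gpi1: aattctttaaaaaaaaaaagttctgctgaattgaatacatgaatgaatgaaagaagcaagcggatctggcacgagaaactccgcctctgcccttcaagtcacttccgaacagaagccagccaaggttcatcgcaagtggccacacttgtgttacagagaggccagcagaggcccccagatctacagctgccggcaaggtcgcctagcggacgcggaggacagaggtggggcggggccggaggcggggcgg
Hk2: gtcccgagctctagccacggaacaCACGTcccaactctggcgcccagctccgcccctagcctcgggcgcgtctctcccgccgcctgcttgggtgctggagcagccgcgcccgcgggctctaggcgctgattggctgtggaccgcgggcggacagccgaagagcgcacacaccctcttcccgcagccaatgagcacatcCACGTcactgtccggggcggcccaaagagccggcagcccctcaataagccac
Slc2a1: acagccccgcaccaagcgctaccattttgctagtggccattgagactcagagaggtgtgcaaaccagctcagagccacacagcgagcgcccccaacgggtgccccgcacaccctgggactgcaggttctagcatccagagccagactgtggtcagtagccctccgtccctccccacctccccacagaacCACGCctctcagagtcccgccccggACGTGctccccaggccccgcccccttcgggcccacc
The Hk2 and Slc2a1 windows held 2 matches each and the Gpi1 window held 0, which says only that these letters are not in that window.

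Library depth was 10.08 to 28.62 M gene counts (M stands for 1000000), with 15885 to 19380 genes detected. Levels are counts per 1000000 of TMM-scaled library size (CPM), and fold changes and adjusted p-values are from edgeR's quasi-likelihood test over all genes with Benjamini-Hochberg adjustment at 0.05, unless another test is named. Basal keratinocyte markers summed to 35300 to 84270 CPM per library, with 10 of 10 markers averaging above 1 CPM in every population, whereas T cell and NK cell markers summed to at most 3.89 CPM. Melanocyte markers summed to 140.7 CPM in a6-low KO replicate 1 and to at most 6.60 CPM in any other library. In a6-low cells 4 of 7 melanocyte markers averaged at least 1 CPM. That KO library also had the highest Hk2 level, 128.5 CPM, and a part of melanocytes in it was not tested. Cd34 was at 162.6 to 214 CPM in CD34-positive cells and at 4.51 to 40.3 CPM in CD34-negative cells. Itga6, which encodes a6, did not separate the a6-low libraries: WT replicate 1 and KO replicate 2 reached the a6-high level, and the highest a6-low value was 470.8 CPM. Sirt6 was at 5.07 to 8.53 CPM in KO libraries and 4.45 to 10.5 CPM in WT libraries, so its total count did not separate the genotype labels. The labels do not name the deleted exons, and a gene total that includes retained exons checks nothing. The 3 KO replicate 2 libraries expressed the Y-linked gene Ddx3y at 51.9 to 74.9 CPM, while no other library was above 0.222 CPM. No label ties a library to an animal, so the p-values rest on the scatter of these libraries, which can include technical scatter. In such bulk samples, fewer cells of a type and less RNA per cell cannot be told apart.

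Per kilobase of the principal transcript, the 10 genes fell into a high, an intermediate and a low tier. Slc2a1 averaged 117 ± 46.3 CPM per kb and Gpi1 110 ± 39.9 CPM per kb (SD, n = 15 libraries each), and the libraries of both overlapped. Pfkl followed at 77.2 ± 19.3 CPM per kb, then Pfkp at 61.4 ± 8.73 CPM per kb and Hk1 at 39.5 ± 7.49 CPM per kb, and each overlapped its neighbour in the order. Hk2 was lower at 13.9 ± 5.06 CPM per kb, and its highest library, 23.3, lay under the lowest Hk1 library, 26.3. The low tier held Pfkm at 2.15 ± 0.727, Pfkfb3 at 2.0 ± 1.79 and Pfkfb4 at 1.62 ± 0.412 CPM per kb, which did not differ beyond their spread. Slc2a3 was lowest at 0.160 ± 0.101 CPM per kb, and Slc2a1 made 99.41% to 99.97% of the summed level of both transporters in each library. Slc2a1, Hk1, Pfkl and Pfkp were the most abundant isoforms of their steps.

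**Figure D1:**
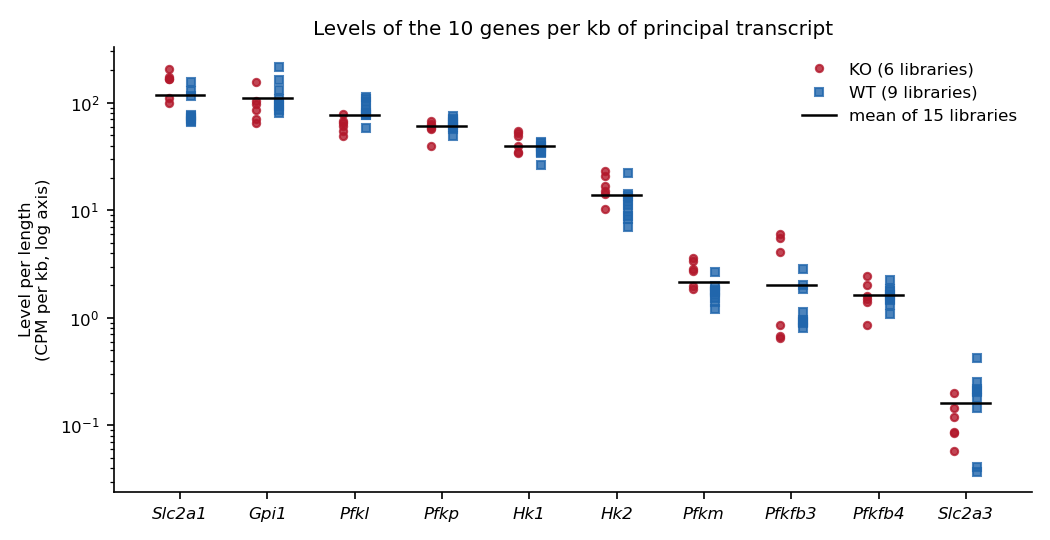
Level of each gene in CPM per kb of principal transcript on a log axis, ordered by the mean of 15 libraries (black bars), with 6 KO libraries as circles left of 9 WT libraries as squares. Slc2a1 and Gpi1 average 117 and 110 CPM per kb, and Slc2a3 averages 0.160 CPM per kb.

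The first comparison set CD34-positive a6-high cells, a fraction known in mouse skin carcinomas for tumour-propagating cells, against their CD34-negative a6-high counterpart. Gpi1 had the clearest difference. It was at 447 and 281.5 CPM in CD34-positive KO cells and at 616, 380.2 and 464.5 CPM in CD34-positive WT cells. The CD34-negative a6-high population had 244.5 and 188.3 CPM in KO and 286.3, 230.1 and 274.5 CPM in WT. The lowest CD34-positive library, KO replicate 2, fell just under the highest CD34-negative one, so the groups overlapped by that library alone, while within each genotype and replicate number the CD34-positive library was the higher in 5 of 5 pairs. The fitted log2 fold change was 0.82 ± 0.19 (SE), or 1.76-fold, with an edgeR adjusted p of 0.0576, just above the threshold. Gpi1 shares 741 exon bases with Gm26762 on the opposite strand in GENCODE M21, whose level was not analysed here, so Gpi1 counts made without strand are uncertain.

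Deviations from group means correlated between these populations within a genotype and replicate number, but unevenly. The correlation was 0.53 in KO, 0.374 in WT replicate 3, and only 0.104 and 0.126 in WT replicates 1 and 2. In WT replicates 1 and 2 the paired libraries differed in depth, at 21.56 against 14.96 M and 14.73 against 20.53 M gene counts (CD34-positive first). The part of depth in the blocked fit below was not tested. Taking genotype and replicate number as a block gave Gpi1 a log2 fold change of 0.80 with an edgeR adjusted p of 0.00664. In that fit Gpi1 was the 1 gene of the 10 called, against 5.41% of all genes, whereas without the block 0 of 10 were called against 1.17% of all genes. DESeq2 also called only Gpi1 (adjusted p = 0.00363), against 5.41% of its genes. At an unadjusted edgeR p under 0.05, 2 of 10 members passed, against 15.1% of all genes. The blocked call was lost without KO replicate 1 (adjusted p = 0.125) and without WT replicate 3 (adjusted p = 0.0526), and the blocked log2 fold change stayed between 0.72 and 0.87 when any 1 of the 5 labels was left out. Endothelial markers moved with CD34: their sum was 19.3 to 82.6 CPM in CD34-positive cells and 5.56 to 14.4 CPM in the other a6-high cells, with 6 of 12 markers and 3 of 12 markers averaging at least 1 CPM in those populations, and Tek at 0 in all libraries of the other a6-high cells. Its part in the Gpi1 difference was not tested.

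The other 9 genes did not pass the test in this comparison. Slc2a1 was at 321.3 and 543.7 CPM in CD34-positive KO cells and at 378.7, 215.5 and 232.5 CPM in CD34-positive WT cells. In CD34-negative a6-high cells it was at 665.8 and 560 CPM in KO and at 245.5, 512.4 and 232.2 CPM in WT. These ranges overlapped broadly, with a log2 fold change of -0.38 ± 0.29 (edgeR adjusted p = 0.624), and CD34-positive cells were the higher in 2 of 5 pairs. In WT replicates 1 and 2 the library with more Slc2a1 was the deeper one, at 21.56 against 14.96 M and 20.53 against 14.73 M gene counts. This was also so in KO replicate 1, but not in KO replicate 2 or WT replicate 3. The part of depth in these Slc2a1 levels was not tested. Slc2a3 was lower in 5 of 5 pairs, at 0.146 to 0.574 CPM in CD34-positive cells and 0.341 to 1.69 CPM in the other a6-high cells, levels that rest on 2 to 22 counts per library (log2 fold change -1.25 ± 0.48, edgeR adjusted p = 0.228). The share of all genes with 1 direction in 5 of 5 pairs was 20.3%. Hk1 averaged 165.8 ± 31 CPM with CD34 and 164.2 ± 22.6 CPM without it, and Hk2 averaged 60.2 ± 19.2 CPM with CD34 and 66.3 ± 17.7 CPM without it (SD, n = 5 each). Over the 10 genes 5 log2 fold changes were positive and 5 negative, with a median of -0.06, beside -0.02 over all genes tested.

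**Figure D2:**
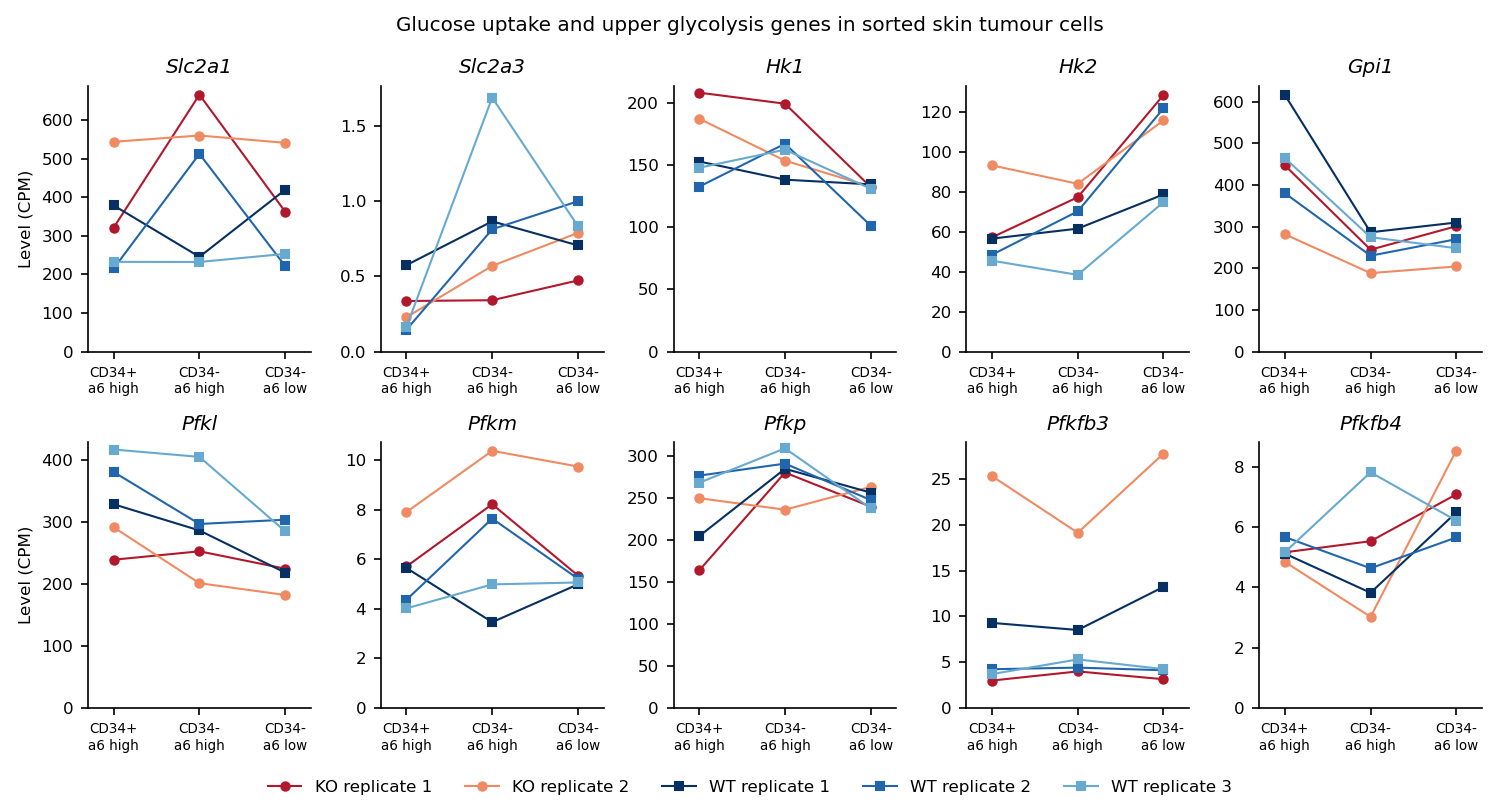
Level of each gene in CPM in the 3 sorted populations, with 1 line per genotype and replicate number (KO circles, WT squares) and a separate linear axis from 0 for each gene. Gpi1 is highest in CD34-positive cells on each of its 5 lines, Hk2 is highest in a6-low cells on each of its 5 lines, and Pfkfb3 is highest in KO replicate 2 in every population.

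The phosphofructokinases differed in their make-up by share. Their summed level was 147 ± 28.8 CPM per kb in CD34-positive cells and 148 ± 25.6 CPM per kb in CD34-negative a6-high cells. Pfkl, the liver-type subunit, was at 239.5 and 291.9 CPM in CD34-positive KO cells and 329.2, 381.3 and 417.7 CPM in CD34-positive WT cells. In CD34-negative a6-high cells Pfkl was at 253.1 and 201.5 CPM in KO and 286.8, 297.3 and 405.8 CPM in WT. Pfkp, the platelet-type subunit, was at 164 and 250.1 CPM in CD34-positive KO cells and 204.9, 277.1 and 268.6 CPM in CD34-positive WT cells. In CD34-negative a6-high cells Pfkp was at 280.7 and 236.4 CPM in KO and 285.2, 291.4 and 309.6 CPM in WT. Neither gene passed the test alone: the log2 fold change was 0.21 ± 0.16 for Pfkl (edgeR adjusted p = 0.627) and -0.28 ± 0.14 for Pfkp (edgeR adjusted p = 0.392).

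As a share of the summed CPM per kb of Pfkl, Pfkm and Pfkp, Pfkl made 60.4% ± 3.14 in CD34-positive cells and 51.9% ± 4.42 in CD34-negative a6-high cells (SD, n = 5 each; two-sided exact permutation test, p = 0.0159, adjusted p = 0.0397 over 5 shares). Pfkp made 38.2% ± 2.87 in CD34-positive cells and 46.4% ± 3.70 in CD34-negative a6-high cells (exact permutation p = 0.0159, adjusted p = 0.0397). The 2 shares are near complements, since Pfkm, the muscle-type subunit, was low. They are thus 1 contrast entered as 2 of the 5 shares, and the adjusted p of 0.0397 rests on counting both. An adjusted p with 1 entry was not computed. Pfkm shares 341 exon bases with Gm26513 on the same strand in GENCODE M21, so its counts are uncertain too. Each of the Pfkl and Pfkp shares was called in only 2 of 10 fits that left out 1 library, with exact permutation adjusted p of 0.0397 to 0.0992. A sign-flip test within the 5 labels cannot go below an exact p of 0.0625, which both shares reached. Pfkp shares 748 exon bases with Pitrm1 on the other strand in GENCODE M21, a gene at 65 to 123.5 CPM here, so Pfkp counts made without strand are uncertain. The Hk2 share of both hexokinases averaged 20.1% ± 3.69 in CD34-positive and 21.9% ± 4.92 in CD34-negative a6-high cells (exact permutation p = 0.516, adjusted p = 0.645).

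The second comparison set CD34-negative a6-high cells against CD34-negative a6-low cells, and neither hexokinase passed the test over all genes here. Hk2, the inducible hexokinase, was at 77.3 and 84 CPM in a6-high KO cells and 61.6, 70.2 and 38.4 CPM in a6-high WT cells. In a6-low cells Hk2 was at 128.5 and 115.8 CPM in KO and 78.7, 121.8 and 74.9 CPM in WT. It was the lower in a6-high cells in 5 of 5 pairs (14.8% of all genes had 1 direction in 5 of 5), although the highest a6-high libraries overlapped the lowest a6-low ones (log2 fold change -0.65 ± 0.21, edgeR adjusted p = 0.297).

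Hk1, the constitutive hexokinase, was at 199.4 and 153.6 CPM in a6-high KO cells and 138.3, 167.2 and 162.4 CPM in a6-high WT cells. In a6-low cells Hk1 was at 132.4 and 132.7 CPM in KO and 134.5, 101.3 and 131 CPM in WT. All 5 a6-high libraries lay above all 5 a6-low libraries, and Hk1 was the only one of the 10 genes without overlap, against 1.77% of all genes (log2 fold change 0.38 ± 0.13, edgeR adjusted p = 0.322). Between these populations edgeR called 0 of the 10 genes against 0.00683% of all genes, and DESeq2 called 0 against 1.69% of its genes. With the label as a block edgeR called 0 as well, against 0.41% of all genes. At an unadjusted p under 0.05 edgeR passed 2 of 10 members, against 11.1% of all genes, and DESeq2 passed 3 of 10, against 13.7%.

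The Hk2 share of the summed hexokinase level was 21.9% ± 4.92 in a6-high cells and 36.3% ± 7.42 in a6-low cells (SD, n = 5 each). The highest a6-high library, 27.7%, lay under the lowest a6-low library, 28.5%, and the exact two-sided permutation p was 0.00794, the smallest that 5 against 5 allows (adjusted p = 0.0397 over 5 shares). That call was lost in 6 of the 10 fits that left out 1 library, in which the exact permutation adjusted p ranged up to 0.159 over all 10. The summed hexokinase level was 54.7 ± 7.32 CPM per kb in a6-high cells and 51.7 ± 4.59 CPM per kb in a6-low cells. Suprabasal keratinocyte markers (11 of 12 found, each of the 11 averaging at least 1 CPM in both populations) summed to 8818 to 16390 CPM in a6-high cells and 8573 to 42890 CPM in a6-low cells. Macrophage and dendritic markers summed to 23.1 to 247 CPM in a6-high and 63.1 to 376 CPM in a6-low cells, with 5 of 15 and 11 of 15 averaging at least 1 CPM in a6-high and a6-low cells and 0 of 15 absent throughout. Neutrophil and mast cell markers summed to 71.2 to 490 CPM in a6-high cells and 206 to 1523 CPM in a6-low cells, with 2 of 12 and 3 of 12 averaging at least 1 CPM in a6-high and a6-low cells and with Elane, Mcpt4 and Cpa3 at 0 in both. Csf3r and Ly6g were also at 0 in all a6-high libraries, so this sum rests on few genes and does not measure neutrophil number. The part of these marker differences in the hexokinase difference was not tested.

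**Figure D3:**
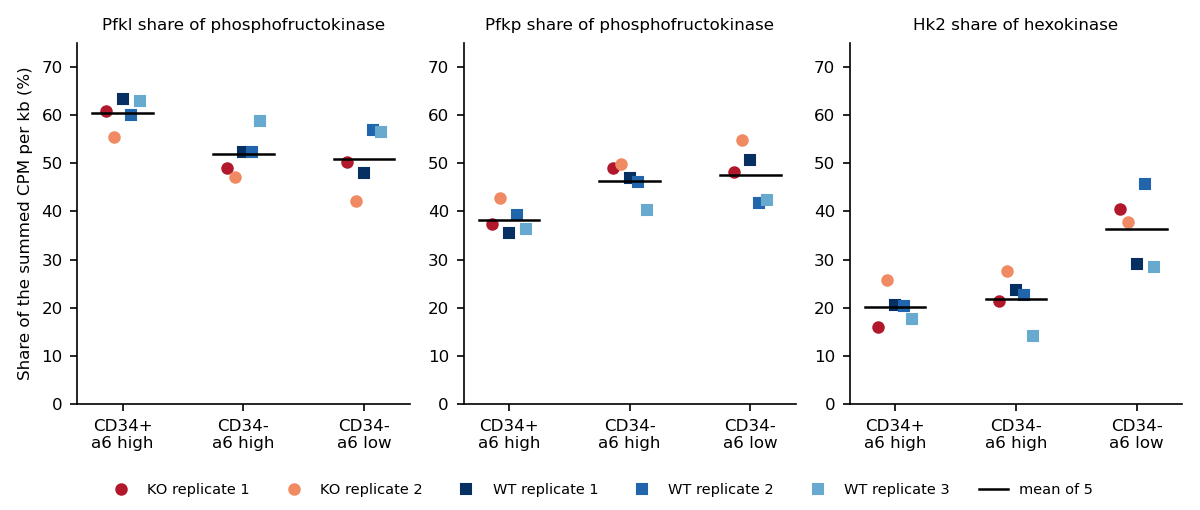
Share of Pfkl and of Pfkp in the summed CPM per kb of 3 phosphofructokinases, and share of Hk2 in that of both hexokinases, in percent by library and population (KO circles, WT squares, black bars for the mean of 5 libraries). The Pfkl share averages 60.4% in CD34-positive and 51.9% in CD34-negative a6-high cells, and the Hk2 share averages 21.9% in a6-high and 36.3% in a6-low CD34-negative cells.

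CD34-positive a6-high and CD34-negative a6-low cells differ in both sorting markers. Here Hk2 fell in CD34-positive cells, at 57.2 and 93.2 CPM in KO and 56.6, 48.5 and 45.5 CPM in WT, against the a6-low values above, which averaged 103.9 ± 25.2 CPM (SD, n = 5). Hk2 was lower in CD34-positive cells in 5 of 5 pairs, by 1.72-fold (log2 fold change -0.78 ± 0.21, edgeR adjusted p = 0.0498). It was the 1 gene of the 10 called, against 4.93% of all genes, and its overlap with the a6-low group came from CD34-positive KO replicate 2. At an unadjusted edgeR p under 0.05, 5 of 10 members passed, against 21.6% of all genes, and DESeq2 called 3 of 10 (Gpi1, Hk1 and Hk2), against 11.5% of its genes. No member's groups were free of overlap here or in the CD34 comparison, against 6.91% and 4.2% of all genes. The call was lost without any 1 of the 10 libraries, with edgeR adjusted p of 0.0504 to 0.216 and log2 fold changes of -0.98 to -0.63. Marker sums of other cells overlapped between these populations for macrophage and dendritic cells, at 30.3 to 92.2 CPM with CD34 and 63.1 to 376 CPM in a6-low cells (6 of 15 and 11 of 15 markers averaging at least 1 CPM, 0 of 15 absent throughout). Neutrophil and mast cell markers summed to 94.7 to 315 CPM with CD34 and 206 to 1523 CPM in a6-low cells (3 of 12 averaging at least 1 CPM in both, with Retnlg, Elane, Mcpt4 and Cpa3 at 0 in both), again a sum that rests on few genes. Suprabasal markers summed to 7497 to 23230 CPM with CD34 and 8573 to 42890 CPM in a6-low cells, with 11 of 11 averaging at least 1 CPM in both. Endothelial markers summed to 19.3 to 82.6 CPM with CD34 and 5.67 to 29.1 CPM in a6-low cells (6 of 12 and 5 of 12 averaging at least 1 CPM, 0 of 12 absent throughout). Fibroblast markers summed to 0 to 0.328 CPM with CD34 and 0.415 to 4.33 CPM in a6-low cells, with 0 of 8 averaging 1 CPM in either and Lum and Dpt at 0 in both. Their part in the Hk2 difference was not tested.

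With the block for genotype and replicate number the Hk2 log2 fold change was -0.78 (edgeR adjusted p = 0.0178) and Gpi1 was also called, at 0.66 (edgeR adjusted p = 0.00864), so that 2 of 10 members were called against 11.8% of all genes. Gpi1 averaged 437.8 ± 122.8 CPM in CD34-positive and 266.5 ± 42.7 CPM in a6-low cells and was higher in 5 of 5 pairs. Without the block its log2 fold change was 0.67 ± 0.19 (edgeR adjusted p = 0.0588). The blocked Hk2 call was lost without KO replicate 1 (adjusted p = 0.183) and without WT replicate 3 (adjusted p = 0.0739), and the blocked Gpi1 call without KO replicate 1 (adjusted p = 0.1004), KO replicate 2 (adjusted p = 0.0649) or WT replicate 3 (adjusted p = 0.0705), all from edgeR. Without the 2 a6-low libraries whose Itga6 was at the a6-high level, blocked Hk2 had a log2 fold change of -1.01 (edgeR adjusted p = 0.0164) and blocked Gpi1 one of 0.63 (edgeR adjusted p = 0.0543).

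Hk1 and Pfkl were also higher in CD34-positive than in a6-low cells in 5 of 5 pairs, without passing the test. The log2 fold change was 0.41 ± 0.13 for Hk1 (edgeR adjusted p = 0.0912, and 0.0273 in DESeq2) and 0.43 ± 0.16 for Pfkl (edgeR adjusted p = 0.133). Slc2a3 was lower in 5 of 5 pairs (log2 fold change -1.28 ± 0.48, edgeR adjusted p = 0.142). Slc2a1 and Pfkp averaged 338.4 ± 132.6 and 232.9 ± 47.6 CPM in CD34-positive cells, against 359.6 ± 129.2 and 249.3 ± 10.9 CPM in a6-low cells. Among all genes 29.1% had 1 direction in 5 of 5 pairs.

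**Figure D4:**
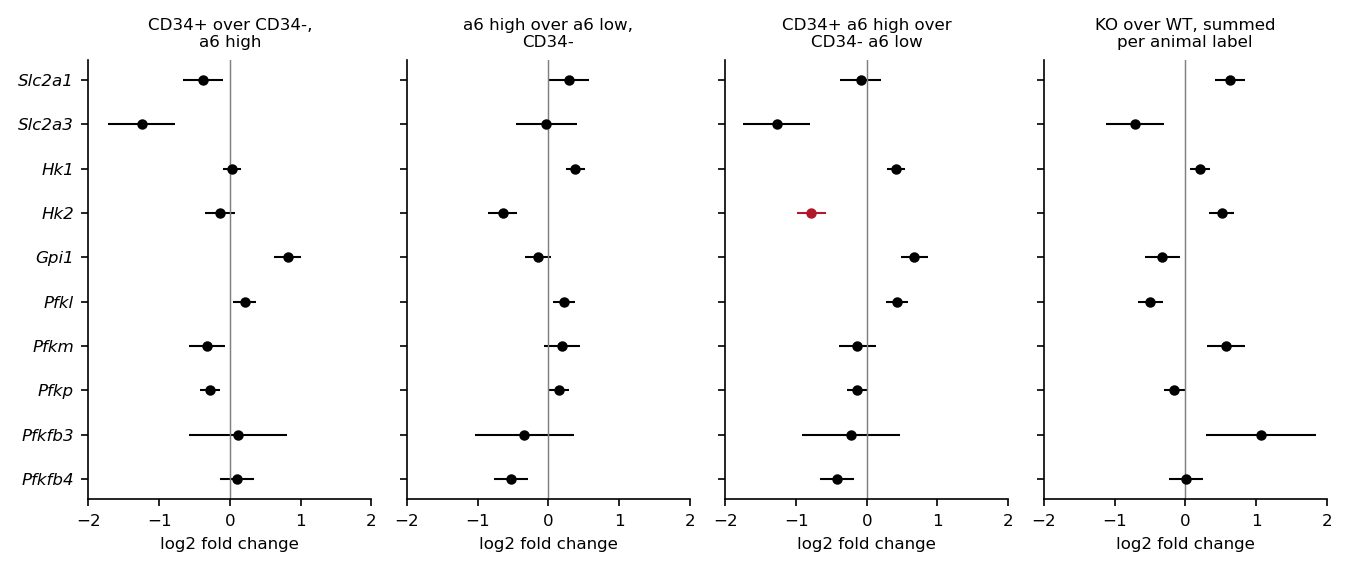
Fitted log2 fold change with its standard error for each gene in the 3 population comparisons and in KO over WT with counts summed per genotype and replicate number, where red marks an edgeR adjusted p under 0.05. Gpi1 stands at 0.82 in the CD34 comparison, and Hk2 at -0.78 between CD34-positive and a6-low cells is the only red point.

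The third comparison set SIRT6 KO against WT, which addresses whether loss of the deacetylase went with higher levels of these genes. With counts summed over the populations of each genotype and replicate number, edgeR called 0 of the 10 genes against 0.00641% of all genes, and DESeq2 called 0 against 0.819% of its genes. At an unadjusted p under 0.05 both tools passed 3 of 10 members, against 10.6% of all genes in edgeR and 12% in DESeq2. Within the CD34-positive, the other a6-high and the a6-low cells taken singly edgeR also called 0 of 10, against 0.00683% of all genes in each. At an unadjusted p under 0.05 edgeR passed 2, 3 and 0 members in those populations, against 7.59%, 9.59% and 4.69% of all genes. DESeq2 called 0 members in each, against 0.17%, 0.199% and 0.0239% of its genes, and passed 2, 3 and 0 at an unadjusted p under 0.05, against 9.09%, 10.1% and 3.19%. The direction below is that of the genotype labels, which the Sirt6 totals did not check.

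Slc2a1 averaged 450 and 548 CPM over the 3 libraries of each label in KO, against 348, 316.5 and 239 CPM in WT. All libraries labelled KO were at 321.3 CPM or more, while 3 of the 9 labelled WT were higher than that, and the log2 fold change of the sums was 0.63 ± 0.22 (edgeR adjusted p = 0.461). Those 3 were the deepest WT libraries, at 20.27 to 21.56 M gene counts. The other WT libraries, at 10.08 to 16.16 M, had 215.5 to 253.2 CPM of Slc2a1. KO libraries had 19.78 to 28.62 M, so genotype and depth went together for every member, and the part of depth was not tested. Hk2 averaged 87.7 and 97.7 CPM in KO, against 65.6, 80.2 and 52.9 CPM in WT (log2 fold change 0.52 ± 0.18, edgeR adjusted p = 0.461). Hk1 averaged 180.1 and 158 CPM in KO, against 142, 134 and 147 CPM in WT (log2 fold change 0.21 ± 0.14, edgeR adjusted p = 0.594).

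Pfkl ran the other way, at 239 and 225 CPM in KO, against 278, 328 and 370 CPM in WT (log2 fold change -0.49 ± 0.17, edgeR adjusted p = 0.461). Pfkm averaged 6.43 and 9.34 CPM in KO, against 4.70, 5.74 and 4.69 CPM in WT (log2 fold change 0.58 ± 0.27, edgeR adjusted p = 0.480). Gpi1 averaged 331 and 225 CPM in KO, against 404, 293 and 329 CPM in WT, which overlapped. Over the label means, Slc2a1, Hk1, Hk2 and Pfkm were higher and Slc2a3 and Pfkl lower without overlap in KO, and such a separation was found in 34.2% of all genes. No member separated all 6 libraries labelled KO from all 9 labelled WT, against 0.744% of all genes.

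The single populations gave fold changes of the same sign for these genes. Slc2a1 had log2 fold changes of 0.65 ± 0.40 in CD34-positive, 0.89 ± 0.40 in CD34-negative a6-high and 0.60 ± 0.40 in a6-low cells. Hk2 had 0.58 ± 0.29, 0.51 ± 0.29 and 0.41 ± 0.29 on the same log2 scale and in the same order of populations, and Pfkl had -0.50 ± 0.22, -0.54 ± 0.22 and -0.40 ± 0.22. The edgeR adjusted p of all 10 genes was at least 0.510 in each population. Groups did not overlap for 4 genes in CD34-positive cells (28.1% of all genes), for 6 in CD34-negative a6-high cells (30.2%) and for 2 in a6-low cells (14.9%). The CD34 difference and the a6 difference were each tested for a difference between genotypes, and edgeR called 0 of 10 members and 0% of all genes in both tests, with 0 members at an unadjusted p under 0.05 against 1.09% and 1.15% of all genes. DESeq2 called 0 of 10 members in both, against 0.00398% and 0% of its genes, with 0 members at an unadjusted p under 0.05 against 0.84% and 0.824%.

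Macrophage and dendritic markers summed to 60 to 376 CPM in KO libraries and 23.1 to 186 CPM in WT libraries, with 11 of 15 and 5 of 15 averaging at least 1 CPM in KO and WT libraries and 0 of 15 absent throughout. By median their sum was higher in KO (169.3 against 63.1 CPM), as was the melanocyte sum (3.69 against 2.13 CPM). Median sums were lower in KO for basal (53220 against 68730 CPM) and suprabasal markers (10700 against 16390 CPM). They were also lower for neutrophil and mast cell (136.1 against 250.9 CPM) and endothelial markers (12.7 against 18.2 CPM). The ranges of all these sums overlapped between genotypes. The part of these marker differences in the levels above was not tested. Without KO replicate 2, which leaves 1 KO label assumed to vary like the WT labels, the log2 fold change of the sums was 0.50 for Slc2a1, 0.46 for Hk2, -0.43 for Pfkl and 0.30 for Pfkm.

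Pfkfb3, which favours synthesis of fructose 2,6-bisphosphate, varied more between library labels than between populations. It was at 25.3, 19.1 and 27.8 CPM in the CD34-positive, the other a6-high and the a6-low cells of KO replicate 2. The other KO replicate had 2.98, 3.98 and 3.13 CPM in these populations. WT replicate 1 had 9.28, 8.51 and 13.2 CPM, and the other WT libraries had 3.69 to 5.29 CPM. KO replicate 2 was the label with Ddx3y, and whether sex had a part was not tested. Between genotypes the log2 fold change of the sums was 1.07 ± 0.78 with both KO labels (edgeR adjusted p = 0.609) and -0.93 without KO replicate 2. The standard deviation of log2 level between the 5 label means was 1.05 for Pfkfb3, against 0.08 between the 3 population means. For Gpi1 the order was the opposite, 0.29 between labels and 0.43 between populations, and for Slc2a1 it was 0.47 between labels and 0.18 between populations. Pfkfb4, the related hypoxia-induced enzyme, kept to 3.02 to 8.54 CPM in all libraries, with a log2 fold change of -0.52 ± 0.24 in a6-high over a6-low cells (edgeR adjusted p = 0.452).

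**Figure D5:**
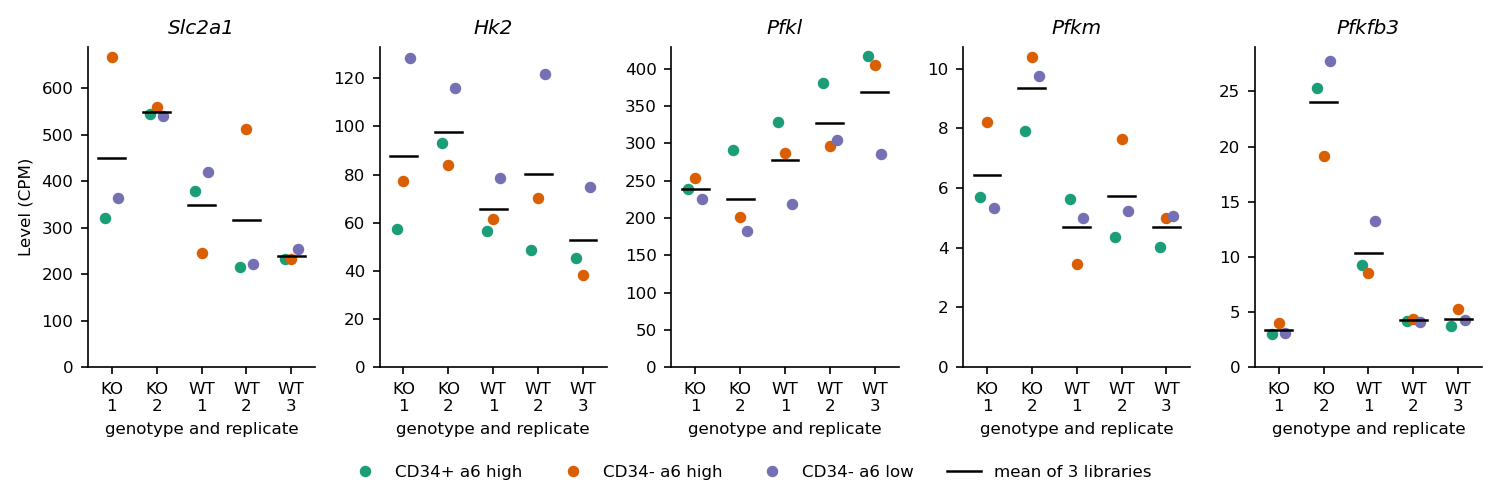
Level of 5 genes in CPM by genotype and replicate number, with 1 point per population and black bars for the mean of 3 libraries. KO means of Slc2a1 are 450 and 548 CPM and WT means 348, 316.5 and 239 CPM, and Pfkfb3 is at 19.1 to 27.8 CPM in KO replicate 2.

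Across the 15 libraries, which share labels and depth differences, the members did not move as 1 block. Of the 45 pairs, Slc2a1 and Pfkm were most alike (r = 0.865 of log2 level), and Hk2 and Pfkl were most opposed (r = -0.713). Among tested genes with a mean of at least 10 CPM, the gene most like Gpi1 was Ldha, which makes lactate from pyruvate (r = 0.958, n = 15 libraries), followed by Limd2 (r = 0.947) and Psmd13 (r = 0.941). The gene most like Pfkl was Tpi1, the triosephosphate isomerase (r = 0.954), followed by Samd12 (r = 0.922) and Prelid2 (r = 0.921). Slc2a1 was most like Pan2 and Glg1 (r = 0.918 each), Hk1 most like E2f6 (r = 0.933), Hk2 most like Sat1 (r = 0.897) and Pfkfb3 most like Rgl2 (r = 0.958). For Slc2a3, Pfkm, Pfkp and Pfkfb4 the nearest genes were Pusl1 (r = 0.781), Ttc3 (r = 0.912), Snapc2 (r = 0.851) and Atp6v0a2 (r = 0.848).

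Around these 10 genes, other parts of glucose metabolism were read from lists in the same fits. Pfkfb1, another enzyme of fructose 2,6-bisphosphate, was the only gene of 3 tested further isozymes to pass in the CD34 comparison: it rose to 6.47 ± 1.94 CPM in CD34-positive cells, against 2.33 ± 0.594 CPM in CD34-negative a6-high cells (SD, n = 5 each; 2.82-fold, edgeR adjusted p = 0.0311), without overlap. In this comparison edgeR called 1.17% of all genes without the block, and 4.2% of all genes had no overlap. Of the 12 tested genes of lower glycolysis edgeR called 0 in either direction, with or without the block, and DESeq2 called 0. The shares of all genes called were 5.41% with the block, 1.17% without it and 5.41% in DESeq2. At an unadjusted edgeR p under 0.05, 4 of the 12 passed, against 15.1% of all genes, and the median log2 fold change of all 12 was 0.22, beside -0.02 over all genes. Ldha, the gene nearest to Gpi1, was at 6466 ± 1759 CPM with CD34 and 3407 ± 359.6 CPM without it in a6-high cells (1.88-fold, edgeR adjusted p = 0.0600, and 0.0108 with the block). Without the block edgeR called 0 of 8 other glucose transporters, 0 of 12 genes of pyruvate and lactate handling, 0 of 7 opposing enzymes and inhibitors, 0 of 13 genes of hexose phosphate branches, 0 of 14 transcription regulators and 0 of 15 other hypoxia targets, against 1.17% of all genes. At an unadjusted p under 0.05 these lists held 1, 4, 2, 3, 2 and 0 genes in the same order, against 15.1% of all genes, and DESeq2 called 0, 1, 0, 2, 1 and 0, against 5.41% of its genes. With the block the edgeR calls in these lists, in order, were 0, 1 higher and 1 lower, 1 lower, 2 higher, 1 higher and 0. The share of all genes called in that fit was 5.41%. Txnip, an arrestin that limits glucose uptake, fell 4.07-fold with the block (edgeR adjusted p = 0.0238) and averaged 20.3 ± 13.9 CPM with CD34 and 89.5 ± 88.9 CPM without it (SD, n = 5 each). Also with the block, G6pdx, which draws glucose 6-phosphate into the pentose phosphate pathway, rose 1.89-fold (edgeR adjusted p = 0.0218) and Epas1, which encodes the hypoxia factor HIF2A, rose 2.34-fold (edgeR adjusted p = 0.00901). Endothelial markers also moved with CD34 in this comparison, as given above, and their part in the Epas1 difference was not tested. The 2 other list genes called with the block and not without it were Akr1b3, the aldose reductase that turns glucose to sorbitol, which rose 1.44-fold (edgeR adjusted p = 0.0238), and Pdk2, a kinase that inhibits pyruvate dehydrogenase, which fell 2.15-fold (edgeR adjusted p = 0.0276). Akr1b3 averaged 159.3 ± 13.9 CPM with CD34 and 113.2 ± 19.8 CPM without it, and Pdk2 averaged 2.17 ± 1.17 CPM with CD34 and 4.36 ± 1.55 CPM without it (SD, n = 5 each).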

How the data were processed

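Per the labels' protocols, cDNA of the sorted tumour cells was made with SMART-Seq v4, a kit that does not mark strand. The authors deposited whole-number read counts per Ensembl gene, not normalized. The submitters' processing notes name HTSeq 0.6.0, STAR 2.3.0, Picard 1.100 and mm9 as the build, without roles, and the annotation release was not given in the sources used here. Each table's 5 entries that name no gene stayed out of library sizes; reads aligned to several places were 29.86% to 38.04% of records, reads outside genes 2.61% to 5.13% and ambiguous reads 1.86% to 2.2%.

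Counts of 15 libraries were tested with edgeR 4.0.16 under R 4.3.3 (quasi-likelihood test, TMM, filterByExpr, 1 coefficient per group, 14652 genes tested, Benjamini-Hochberg at 0.05), with DESeq2 1.42.0 as an alternative. Standard errors were derived from the F statistic. Counts were summed per genotype and replicate number for KO against WT (15597 genes). No replicate pair agreed within sampling noise (chi-square at least 38.5 per degree of freedom). Pairing of same-numbered libraries within a genotype, taken from the title numbers, was checked by correlating deviations from group means. CD34-positive libraries correlated at 0.104 to 0.53 with the other a6-high ones and at 0.273 to 0.589 with a6-low ones. All lay above 0.1, the lowest only just, so the blocked values are given there. The deepest WT library was replicate 1 in CD34-positive and a6-low cells and replicate 2 in the other a6-high cells. WT pairs with that library had a chi-square of 84.7 to 167 per degree of freedom. The remaining WT pair had 38.5 in CD34-positive, 39.7 in the other a6-high and 47 in a6-low cells. The part of depth in the blocked values was not tested. Deviations of the 2 KO labels are mirror images, which gives their pairs the same correlation by construction and leaves 4 distinct values of 5. Shares used CPM per kb of the longest principal transcript in GENCODE M21, whose build differs from that of the counts. The printed promoters are RefSeq's on GRCm38.p6, and no coordinates of the counts were used. Depth, at 10.08 to 28.62 M counts (M stands for 1000000), gave abundant genes many counts and was thin for Slc2a3. It was 19.78 to 28.62 M in KO and 10.08 to 21.56 M in WT libraries.

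The members and lists were chosen with earlier results of these data known, so no adjusted p over a list is given. Every member was named; other list genes could be named if called, or if among the 4 smallest p of those lists in the CD34 comparison, and not every such gene is printed; further genes were named if among the 3 genes most like a member by Pearson r of log2(CPM + 1). Marker lists were summed per library. Alternatives tried were other size factors, filters on low counts, the compared groups alone, DESeq2, the block and leaving out libraries.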

Additional observations from a re-analysis of the deposited data

Results flagged for a closer look

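In 5 of 50 groups of 4 to 10 libraries examined over the 10 genes, 1 library stood apart from its group by Dixon's ratio, and chance marks about 1 in 20 groups. Pfkfb3 was highest in CD34-positive a6-high KO replicate 2, at 25.3 CPM, and Hk2 was highest in the same library, at 93.2 CPM. Pfkm was highest among a6-low libraries in KO replicate 2, at 9.75 CPM. In a6-low WT replicate 2, Hk1 was the lowest of its population, at 101 CPM, and Hk2 was the highest of all WT libraries, at 121.8 CPM. That library had the lowest depth of all, 10.08 M gene counts. It also had the highest suprabasal (42890 CPM) and neutrophil and mast cell (1523 CPM) marker sums. The part of depth and of these markers was not tested.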

How the results depend on the processing

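Without the block, the CD34 comparison called 0 members, but 1 (Gpi1) with no filter on low counts, with at least 10 CPM in 2 libraries, with DESeq2, with the replicate block, and, chosen after seeing the data, without the 2 a6-low libraries of high Itga6; leaving out 1 library gave 0 to 1 (1 without CD34-positive WT replicate 2). CD34-positive against a6-low cells called 1, but 2 with no filter, with the 10 CPM filter and with the block, 3 with DESeq2, and 0 with DESeq2 size factors, with the compared groups alone, without KO replicate 2 libraries or the 2 a6-low libraries (both chosen after seeing the data), and, at 0 to 0, without any 1 library. The block changed no other call of members; between a6-high and a6-low cells the pair correlations were -0.012 to 0.466, and the block called 0 members and 60 genes against 1 gene without it. KO and WT share numbers without pairing, with correlations of -0.501 to 0.105. Pfkfb3 between genotypes reversed without KO replicate 2, and its log2 fold change ranged from -0.93 to 1.88 when 1 label was left out. The sign-flip test over 5 labels cannot go below an exact p of 0.0625, so it could pass for no share and says nothing of the stability of the Pfkp (-8.16 points), Pfkl (8.52 points) and Hk2 (-14.4 points) differences. Shares without a call reversed when 1 library was left out: in CD34, Pfkfb3 at -11.4 to 4.43 points; between a6-high and a6-low, Slc2a1 at -0.0735 to 0.0646, Pfkp at -2.65 to 0.627, Pfkl at -0.986 to 2.70 and Pfkfb3 at -1.84 to 12.5; between KO and WT, Hk2 at -0.134 to 6.17. The causes were not tested. Of 464 member fold changes under all settings, 430 kept direction and side of the threshold. The number of libraries limits each test, depth also limits Slc2a3, and depth was not separated from genotype for any member.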
